A study of Mus musculus with 4 samples.

Results

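The p53 response genes are 34 mouse genes that the transcription factor p53 is known to switch on or that govern p53 itself. They were listed by name, with earlier results of these data known, and measured through the array feature that carries each symbol. Of the 34, 30 were measured among 22206 gene features, which stood for 19505 named genes. Trp53, Bax, Fdxr and Gdf15 were not analysed here. The measured members were divided by role into 1 regulator, 7 genes of cell cycle arrest, 12 of cell death, 5 of DNA repair and 5 of metabolism and stress.

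CD8+ T cells of C57/BL6 mice, isolated from lymph nodes and spleens, were activated for 3 days on beads coated with antibodies to CD3 and CD28, in medium with IL-2. The 2 spermidine cultures had 25 µM spermidine, a polyamine, in the medium, and the 2 control cultures were left untreated. Both groups thus shared the same stimulus, cytokine and culture time, and a single dose and time were sampled. Total RNA, 250 ng from each culture, was hybridised to Clariom S Mouse arrays, and values are log2 signals, on which a difference of 1 is a doubling of signal. The arrays of a group are labelled as biological replicates, but which animals or cultures they came from is not given. The p-values therefore reflect only the spread between these samples. They and the standard errors (SE) come from a limma fit. It combines each gene's own variance (2 degrees of freedom) with a prior pooled over all features (5.96 degrees of freedom). An SE is thus not that of the gene's own arrays alone.

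p53 is a DNA-binding protein that is kept scarce by the ubiquitin ligase Mdm2 and accumulates when DNA is damaged, when ribosome assembly is disturbed or when nutrients are short. It binds pairs of short DNA elements near its targets and raises their transcription, and the products halt the cell cycle, prepare the cell for death, repair DNA or restrain growth metabolism. Activated CD8+ T cells divide very fast, and p53 is known as one of the brakes on their expansion. Many cell division genes are silenced downstream of p53 through its target Cdkn1a, which encodes the cyclin-dependent kinase inhibitor p21, and the repressor complex DREAM.

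In the spermidine cultures the p53 response genes stood higher as a group. The difference, spermidine minus control, was above 0 in 29 of the 30 members, whereas 49.1% of all gene features were above 0 and 50.9% below. The median member difference was 0.47 on the log2 scale, against -0.01 over all features. In 21 of the 30 members each spermidine array exceeded each control array, in 0 members each lay lower, and in 9 the groups overlapped. The shares of all features were 18.3%, 18.4% and 63.3%. Of the 30 members 29 were brighter than the median feature, and among the 11103 features that bright the shares were 19.2%, 21.5% and 59.3%, with 46.6% of differences above 0 and 53.4% below. The members with the largest differences were Trp53inp1, Btg2, Plk2, Phlda3, Psrc1 and Polk.

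No single member passed the test. By limma with Benjamini-Hochberg adjustment over all 22206 features, 0 features reached an adjusted p of 0.05 (0% of features), and the adjusted p of the members ran from 0.637 to 0.997. At an unadjusted p under 0.05, 11 of the 30 members were found, where the share was 7.02% of all features and 8.57% of the brighter ones. When a 1.5-fold difference was also required, 10 of the 30 members were higher and 0 lower. The shares were 2.9% and 3.16% of all features, and 3.18% and 4.37% of the brighter ones. Leaving out spermidine replicate 2 reduced this count of 10 to 3, and leaving out control replicate 1 reduced it to 4. The members' mean was 10.74 and 10.87 in the spermidine arrays and 10.27 and 10.40 in the control arrays. The gap between arrays of a group was thus 0.12 with spermidine and 0.13 in control cultures, and the difference of the group means was 0.47. Single genes had wider gaps, with a median of 0.20 between spermidine arrays and 0.28 between control arrays. Members went both ways between replicates, which narrows the gap of their mean. The plot of members by array shows the values gene by gene.

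**Figure D1:**
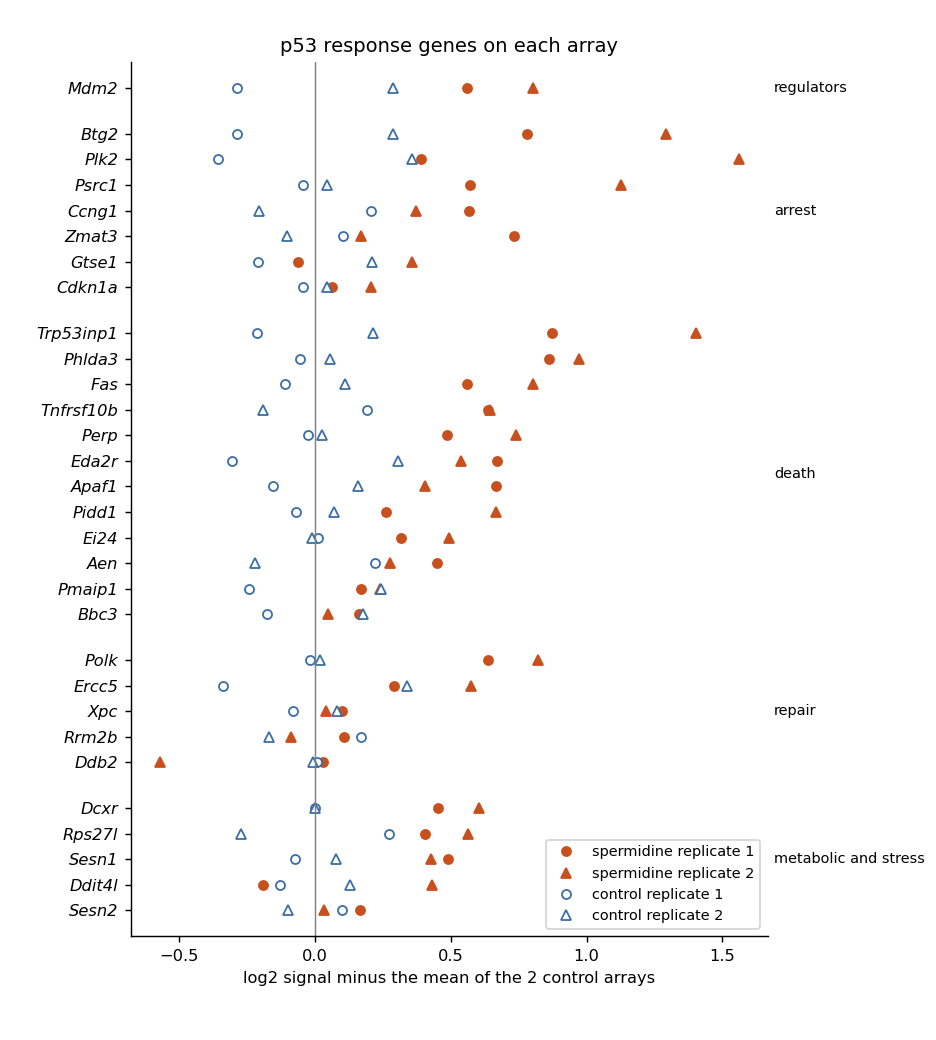
The log2 signal of each of the 30 p53 response genes on every array, on the x axis, is given relative to the mean of that gene's 2 control arrays; filled orange marks are spermidine arrays, open blue marks control arrays, circles replicate 1 and triangles replicate 2. In 21 genes both orange marks lie to the right of both blue ones, and Ddb2 is the gene whose mean lies to the left.

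Some other measures moved alongside. The hybridisation spike-ins, bacterial and phage control transcripts added to each sample at a set amount, were higher in the spermidine arrays by a mean of 0.45 (10.74 and 11.02 with spermidine, 10.47 and 10.39 in control arrays), close to the median member difference. The poly-A spike-ins were higher by 0.43, but their means of 5.25 with spermidine and 4.83 in control arrays were both below the background level given below. All 9 measured B cell markers were higher with spermidine, by a median of 0.35, and their mean signal was 6.73 and 6.52 in the spermidine arrays and 5.99 and 5.83 in the control arrays. The background level, against which markers of other cells were read, was 6.35, the mean over arrays of the 95th percentile of the 23 background control features. Cd79a, part of the B cell receptor, stood above it at 7.40 and 7.15 with spermidine and 6.44 and 6.50 in control cultures. Cd180 had 8.19 and 8.49 with spermidine and 7.13 and 6.48 in control cultures, a difference of 1.54, and Cd79b and Fcer2a were above background in both groups with differences of 0.35 and 0.08. The plasma cell gene Jchain had 7.47 and 8.03 with spermidine and 6.09 and 5.56 in control cultures, the control values being below background, so its difference is no measure of a fold. The other 4 (Ms4a1, Pax5, Cd22 and Blnk) lay below background in both groups. A B cell signal thus stood higher in the spermidine arrays in part of the list. Among CD4 T cell markers, Cd4 had 6.59 and 7.24 with spermidine and 7.11 and 6.84 in control cultures, and Zbtb7b, which directs the CD4 fate, was higher by 0.76 with groups apart. Among NK cell markers, Klrb1c differed by 0.11 and Eomes, which CD8+ T cells also express, by -0.50, both with overlapping groups. The 8 macrophage, 6 dendritic and 3 erythroid or platelet markers measured were all below background in both groups. The part of these shifts in the differences given here was not tested. The T cell identity of the cultures was plain in every array: Cd8a stood at 16.59 and 16.57 with spermidine and at 16.66 and 16.68 in control cultures. Of the 11 CD8 T cell markers measured, 8 were lower with spermidine and 3 higher, with a median of -0.14. In 4 each spermidine array lay below each control array, in 0 each lay above, and in 7 the groups overlapped. The shares of all features were 18.4%, 18.3% and 63.3%, and the part of this shift was not tested either. In such bulk RNA, fewer cells that carry a transcript and less of it in each cell cannot be told apart.

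Mdm2 was the one regulator measured. It encodes the ligase that marks p53 for destruction and is itself a p53 target, so its transcript is a common readout of p53 activity. Its log2 signal was 14.30 and 14.55 in the spermidine arrays and 13.46 and 14.03 in the control arrays. The groups did not overlap, but the control arrays lay 0.57 apart. The difference was 0.68 ± 0.27 (SE, n = 2 arrays a group; limma, adjusted p = 0.689), a 1.60-fold higher level, and it was 0.39 without control replicate 1. Mdm4, a relative of Mdm2 that blocks p53 without degrading it, differed by 0.17.

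The 7 arrest genes were all higher in mean, by a median of 0.47, and in 6 of them each spermidine array exceeded each control array, as in 18.3% of all features and 19.2% of the brighter ones. Btg2, an antiproliferative gene that is also an early response gene, led them with 11.75 and 12.26 in the spermidine arrays against 10.68 and 11.25 in the control arrays. Its difference was 1.04 ± 0.29 (SE), a 2.05-fold higher level. The groups did not overlap, and the arrays within each group lay about as far apart as the nearest arrays of the 2 groups.

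Plk2, a polo-like kinase that acts in stress checkpoints, had 9.58 and 10.75 with spermidine and 8.83 and 9.55 in control cultures. The lower spermidine array was nearly level with the higher control array. Its difference of 0.98 ± 0.41 (SE) had the widest error of the members, and it was 0.39 without spermidine replicate 2 and 1.56 without spermidine replicate 1. Psrc1, which encodes a microtubule-binding protein of the mitotic spindle, had 10.54 and 11.09 with spermidine and 9.92 and 10.01 in control cultures. Here the control arrays agreed closely and both spermidine arrays stood clear of them, with a difference of 0.85 ± 0.26 (SE).

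Cdkn1a, the best known p53 target, differed little. Its signal was 16.06 and 16.20 in the spermidine arrays and 15.96 and 16.04 in the control arrays. The difference was 0.14, with a 95% interval from -0.38 to 0.65, and it was 0.06 without spermidine replicate 2. Ccng1, which encodes cyclin G1, a partner of a phosphatase that acts on Mdm2, had 18.14 and 17.95 with spermidine and 17.78 and 17.37 in control cultures, a difference of 0.47 that was 0.26 without control replicate 2. Zmat3, an RNA-binding zinc finger gene, was higher by 0.45 with groups that did not overlap, and by 0.17 without spermidine replicate 1.

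Gtse1 encodes a microtubule-associated protein made in late cell cycle phases that binds p53. It had 12.52 and 12.94 with spermidine and 12.37 and 12.79 in control cultures. Its groups overlapped, and the difference of 0.15 was smaller than the gap of 0.42 within either group.

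The 12 death genes were all higher in mean, by a median of 0.57, and in 10 of them each spermidine array exceeded each control array, as in 18.3% of all features. The 10 include Eda2r, which lay below background in both groups. The largest difference of all members was that of Trp53inp1, a nuclear cofactor of p53 that also takes part in autophagy. Its signal was 15.51 and 16.04 in the spermidine arrays and 14.43 and 14.85 in the control arrays. The groups lay well apart, with a difference of 1.14 ± 0.28 (SE; limma, adjusted p = 0.637), a 2.20-fold higher level.

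Phlda3, which encodes a small lipid-binding protein that competes with the survival kinase Akt at the membrane, had close replicates. It had 7.71 and 7.82 with spermidine and 6.79 and 6.91 in control cultures. Its difference of 0.92 ± 0.22 (SE) amounted to 8.21 times the larger within-group gap, the highest such ratio among the 30 members. Leaving out any 1 array kept it between 0.86 and 0.97.

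The death receptor Fas had 10.60 and 10.84 with spermidine and 9.93 and 10.15 in control cultures, a difference of 0.68 ± 0.23 (SE). Tnfrsf10b, the mouse receptor for the death ligand TRAIL, had 10.53 and 10.54 with spermidine and 10.09 and 9.70 in control cultures, a difference of 0.64 ± 0.24 (SE). In both receptors the spermidine arrays were closer to each other than to any control array. Perp, a membrane protein gene needed for p53-driven death in some mouse cells, had 7.44 and 7.69 with spermidine and 6.93 and 6.98 in control cultures. Its difference was 0.61 ± 0.23 (SE).

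Among the remaining death genes, Apaf1, the scaffold of the caspase-activating apoptosome, was higher by 0.54. Pidd1, which forms a caspase-2 platform, was higher by 0.46, Ei24, which encodes a membrane protein of the endoplasmic reticulum, by 0.41, and the nuclease gene Aen by 0.36. Pidd1 stood at 0.26 without spermidine replicate 2, and Aen at 0.14 without control replicate 2. The groups did not overlap in any of these 4 genes. Eda2r, a receptor for ectodysplasin A2, stood at 5.84 and 5.71 with spermidine and 4.87 and 5.48 in control cultures, all below the background level, so its difference of 0.60, which was 0.30 without control replicate 1, is no measure of a fold.

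Bbc3 (PUMA) and Pmaip1 (NOXA), which encode BH3-only proteins that trigger death at mitochondria, differed by 0.10 and 0.21, and their groups overlapped. Bbc3 also lay below the background level in both groups. The intervals were -0.44 to 0.65 for Bbc3 and -0.37 to 0.78 for Pmaip1, and no test was made between these genes and the death receptors.

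Of the 5 repair genes, 1 had each spermidine array above each control array. That count is near the share of all features, 18.3%, and of the brighter ones, 19.2%. Polk, a polymerase that copies past damaged bases, had 11.70 and 11.88 with spermidine and 11.04 and 11.08 in control cultures. Its difference of 0.73 ± 0.22 (SE), a 1.66-fold higher level, was 4.01 times the larger within-group gap. Ercc5, the endonuclease of nucleotide excision repair, was higher by 0.43 with overlapping groups, and by 0.09 without control replicate 1.

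The other repair genes were close to level. Rrm2b, the p53-inducible subunit of ribonucleotide reductase, differed by 0.0089, with an interval from -0.54 to 0.56. Xpc, which senses helix distortion, differed by 0.07. Ddb2, which finds ultraviolet lesions, was the 1 member of 30 with a lower mean: 9.35 and 8.75 with spermidine and 9.33 and 9.31 in control cultures. That value of -0.27 came from a single array, since spermidine replicate 1 was level with the control arrays, and it was 0.03 without spermidine replicate 2. The median over the repair genes was 0.07.

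The 5 genes of metabolism and stress were all higher in mean, by a median of 0.46. Dcxr, a reductase of carbonyls and xylulose, had 10.11 and 10.26 with spermidine and 9.65 in both control arrays, a difference of 0.53 ± 0.22 (SE). Sesn1, a sestrin that restrains the growth kinase complex mTORC1, had 10.71 and 10.65 with spermidine and 10.14 and 10.30 in control cultures, a difference of 0.46 ± 0.22 (SE). In both genes the difference exceeded the within-group gaps, at 3.53 times the larger one for Dcxr and 3.03 times for Sesn1.

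Rps27l, a ribosomal protein paralogue that tunes Mdm2, had 12.21 and 12.37 with spermidine and 12.08 and 11.53 in control cultures. Its difference of 0.48 was 0.21 without control replicate 2. Sesn2, the sestrin that is also induced by amino acid shortage, differed by 0.10 with overlapping groups. Ddit4l, another inhibitor of mTORC1, lay below the background level in both groups and differed by 0.12. The plot of differences with their intervals sets the members side by side.

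**Figure D2:**
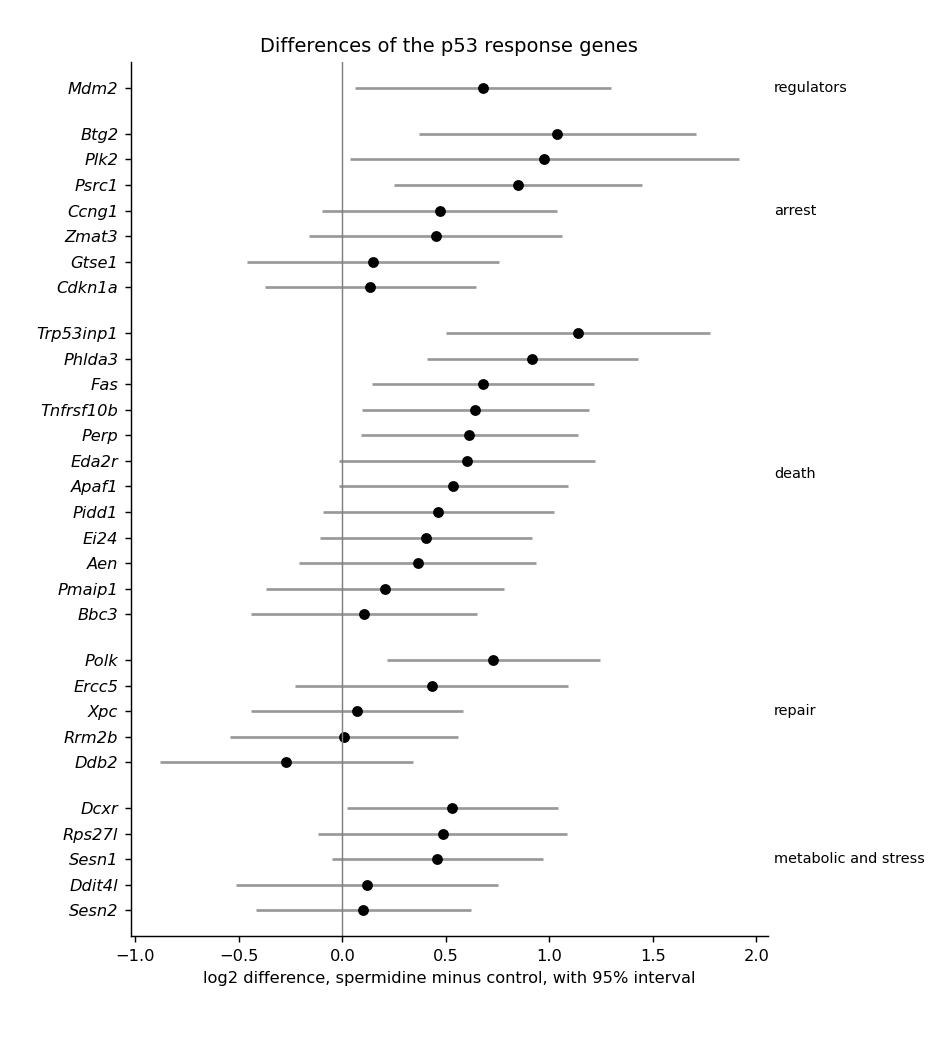
The log2 difference, spermidine minus control, of each of the 30 p53 response genes is shown as a point on the x axis, with its 95% interval from the limma fit as a bar. The interval lies wholly above 0 in 11 genes, from Trp53inp1 at 1.14 to Dcxr at 0.53, and includes 0 in the others.

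RefSeq promoters, from 250 bases before to 50 after a transcription start on build GRCm38.p6, were found for 22 of the 30 measured members. The p53 half-site, the element of 10 bases to which p53 binds as a pair, was searched without mismatch, and its letters read the same on both strands. It occurred in the promoters of 10 of the 22 members (45.5%), against 9.55% of the 27025 genes in the table and 27.3% of the 11 repressed cell division genes described further on. A gene counted if any of its promoters matched, and the 22 members had 31 promoters, the 11 repressed genes 11. Counted by promoter, the shares were 35.5% for members, 8.36% for all 32851 promoters and 27.3% for the repressed genes. A pair of adjoining half-sites with at most 1 mismatch, a search added after the first was seen, occurred in 4 of the 22 members (18.2%), namely Cdkn1a, Ccng1, Gtse1 and Rps27l, against 29 of the 27025 genes (0.107%). Known p53 elements are part of why such genes are listed as targets, so the matches are a description and carry no test. Whether p53 binds at the matches found here was not tested. The windows below show matches in 6 members, with the match in capitals: adjoining half-sites for Cdkn1a and Ccng1 and a single one for the others.
Cdkn1a, chr17:29090908-29090967, plus strand: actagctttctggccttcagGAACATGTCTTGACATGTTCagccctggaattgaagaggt
Ccng1, chr11:40755442-40755501, minus strand: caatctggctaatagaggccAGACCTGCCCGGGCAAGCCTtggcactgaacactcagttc
Mdm2, chr10:117710915-117710964, minus strand: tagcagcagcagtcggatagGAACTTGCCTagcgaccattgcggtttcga
Polk, chr13:96519389-96519437, minus strand: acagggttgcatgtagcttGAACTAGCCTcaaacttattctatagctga
Sesn1, chr10:41887246-41887295, plus strand: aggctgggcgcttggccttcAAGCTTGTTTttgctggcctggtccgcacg
Ei24, chr9:36797335-36797364, minus strand: ccagctgccccgtgcggcccGGGCATGCCC

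The Cdkn1a pair began 51 bases before the upstream of its 2 annotated starts and 2841 bases before the downstream one. Polk and Sesn1 also have 2 annotated starts each. Their half-sites shown lie at the downstream start, and the window of the upstream start holds 0. The 10 members with a half-site in their promoter differed by 0.12 to 0.73, with a median of 0.43, and the 12 without one by 0.10 to 1.04, with a median of 0.57, so the ranges overlapped widely. A window without a match says only that these letters are not within it.

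Other known p53 targets were more mixed. Of 20 listed, 19 were measured, 13 were higher and 6 lower, with a median of 0.09. Of the 19, 5 lay below background in both groups. In either direction 0 passed the adjusted limma test, and 6 had an unadjusted p under 0.05, against 7.02% of all features. Ak1, an adenylate kinase, was higher by 1.20, with 9.67 and 10.11 in the spermidine arrays against 8.47 and 8.91 in the control arrays. The thiamine transporter gene Slc19a2 was higher by 0.83. The cytokine gene Lif was lower, with 12.71 and 12.48 with spermidine and 13.69 and 13.51 in control cultures, a difference of -1.003. The death domain gene Siva1 differed by -0.68. The groups did not overlap in these 4 genes, which were named for the size of their differences. Over the 19, each spermidine array exceeded each control array in 6, among them Epha2, which was below background in both groups, and lay below in 3. The groups overlapped in 10, and the shares of all features were 18.3%, 18.4% and 63.3%.

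The genes that act on p53 were centred near 0. All 19 upstream regulators were measured, 9 higher and 10 lower, with a median of -0.02 and 0 passing the adjusted limma test. An unadjusted limma p under 0.05 was found in 2, Chek1 and Trp63, near the share of 7.02% of all features and 8.57% of the brighter ones. Trp63 was among the 3 regulators below background in both groups. Ep300, a histone acetyltransferase gene and p53 coactivator, was higher by 0.30, and Rpl11, a ribosomal protein gene whose product can inhibit Mdm2, by 0.27. Chek1, the checkpoint kinase of stalled replication forks, stood at 11.48 and 10.48 with spermidine and at 11.75 and 11.80 in control cultures, a difference of -0.80, and Atr, the kinase above it, differed by -0.29. Chek1 was lower mainly on spermidine replicate 2.

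The cell division genes known to be repressed downstream of p53 lay on the other side. Whether p53 took part in their lower level was not tested. Of 15 such genes, listed with earlier results of these data known, 14 were measured. All 14 were lower, by a median of -1.15, with 0 passing the adjusted limma test. An unadjusted limma p under 0.05 was found in 11, against 7.02% of all features. Cdk1, the kinase that starts mitosis, had 9.96 and 8.87 with spermidine and 11.49 and 10.79 in control cultures, a difference of -1.72. Bub1b, a spindle checkpoint kinase, differed by -1.38. In 13 of the 14 each spermidine array lay below each control array, as in 18.4% of all features, and Mki67 was the exception.

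The repressed genes spread more between the 2 spermidine arrays than the p53 response genes did. Their mean was 11.21 and 10.26 in the spermidine arrays, a gap of 0.95, and 12.03 and 11.64 in the control arrays, a gap of 0.40. Gene by gene, the median gap between spermidine arrays was 0.88 in the repressed genes and 0.20 in the p53 response genes, while the median gap between control arrays was similar, at 0.36 and 0.28. The p53 response genes went both ways between replicates, which narrows the gap of their mean. Gtse1, a member that is made in the same cell cycle phases, had a difference of 0.15 and Psrc1 one of 0.85. The differences of the repressed genes ran from -1.72 to -0.36. The interval of Gtse1, from -0.46 to 0.76, reached into that range, and that of Psrc1, from 0.25 to 1.45, did not. With an array left out, Gtse1 ran from -0.065 to 0.36 and Psrc1 from 0.57 to 1.13. The part of the cell cycle phase in the members' differences was not tested. The plot of related lists gives the differences of each list.

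**Figure D3:**
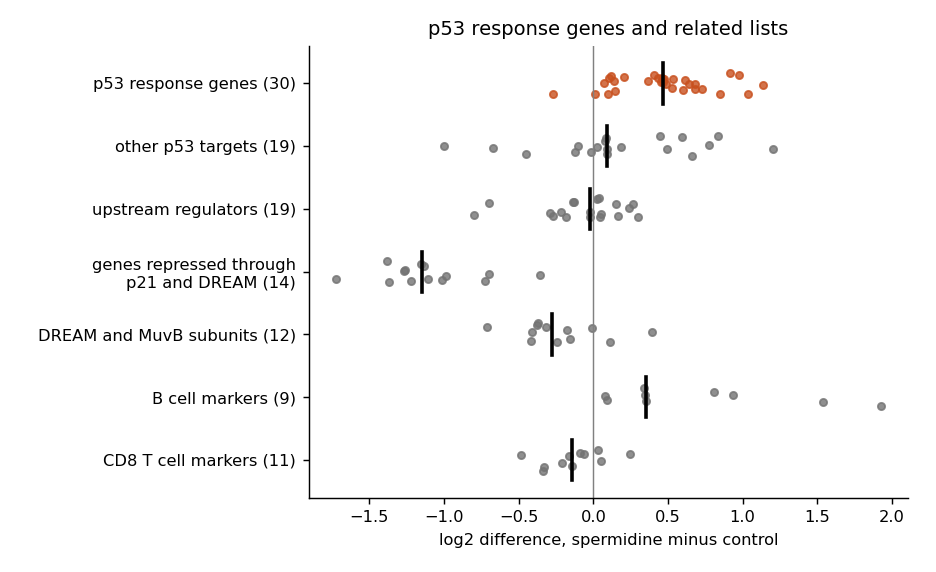
Each point is 1 gene's log2 difference, spermidine minus control, on the x axis, by list, with the number of measured genes in brackets and the list's median as a black bar. The p53 response genes centre on 0.47, other p53 targets on 0.09, upstream regulators on -0.02 and the repressed genes on -1.15.

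The promoters of the repressed genes differed from those of the members in a second element. TTTGAA, the cell cycle element through which DREAM and related complexes act on mitotic genes, was searched on both strands. It occurred in 10 of 11 repressed genes with a promoter in the table (90.9%), in 3 of 22 members (13.6%) and in 20.2% of all genes. The repressed genes were listed as known DREAM targets, so these matches too are a description and carry no test. The members with it were Fas, Aen and Ercc5, while Gtse1 and Psrc1 had none. A promoter of the repressed set is shown for comparison, with the element in capitals and a start 15 bases beyond its first letter.
Cdk1, chr10:69352913-69352947, minus strand: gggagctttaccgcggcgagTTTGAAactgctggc

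**Figure D4:**
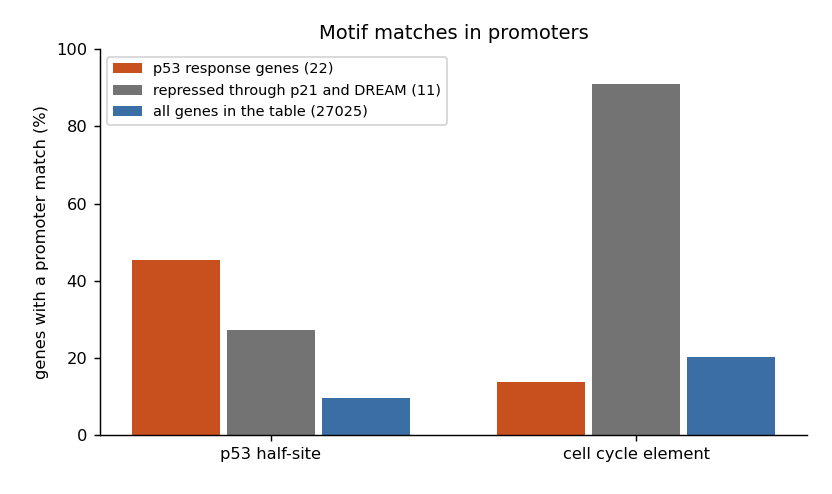
Bars give the percentage of genes with at least 1 match to the p53 half-site or to the cell cycle element in any of their promoter windows, with the number of genes in brackets. The half-site is found in 45.5% of the p53 response genes and 9.55% of all genes, and the cell cycle element in 13.6% of the p53 response genes and 90.9% of the repressed genes. Both lists were chosen by known regulation through p53 or DREAM, so the shares carry no test.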

How the data were processed

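The authors deposited 1 log2 signal per feature and array. Per the submitters' processing notes, Affymetrix Expression Console was used with RMA, and no version is stated. RMA subtracts background, gives all arrays a common distribution and condenses the probes of a feature, which tends to shrink differences of dim features. The log2 base was inferred from the values, which reach 19.93. For the array annotation, a genome build is not stated in the labels. Of 28846 features, 6640 control features were left out and 22206 tested with limma 3.58.1 (lmFit and eBayes, R 4.3.3), spermidine minus control, with no block. The platform annotation gave 1 symbol to 19572 features and none to 2634. Each measured member had 1 feature, so no choice among features arose. Array medians were 5.13 to 5.25 and correlations between arrays 0.989 to 0.994. Arrays have no depth, and 2 a group limit the precision: an exact permutation test over samples could not go below p = 0.333 (two-sided).

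Members, lists and tests were chosen with earlier results of these data known. Lists are described by counts and medians, without a test. All measured members are named, and values in every array are given for those whose groups do not overlap and that have an unadjusted p under 0.05 or one of the 3 largest differences of their role. Array values of Cdkn1a, Ccng1, Gtse1, Eda2r and Ddb2, and the names Mdm4, Mki67, Epha2, Trp63 and those of the cell type markers, were added after values were seen. From the lists of p53 targets, regulators, repressed genes and DREAM subunits, the 2 largest differences in each direction are named among genes brighter than the median feature. The limma script was tested on simulated data. Alternatives changed the prior variance, array weights, normalization, filters, features per symbol, the replicate block and each array in turn.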

Additional observations from a re-analysis of the deposited data

Results flagged for a closer look

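The hybridisation spike-ins, which lie outside the gene comparison, were higher in the spermidine arrays by 0.4512 on the log2 scale, and all 4 of them had both spermidine arrays above both control arrays. The poly-A spike-ins were higher by 0.4275, with 3 of 4 so placed. Their means lay below the background level in both groups, so that difference is no measure of a fold. Both values are of the size of the median member difference, and their part in it was not tested.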

How the results depend on the processing

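The median member difference of 0.47 stayed between 0.45 and 0.52 in 11 alternatives with all arrays and between 0.41 and 0.52 with 1 array left out. The count of members above 0 stayed at 26 to 29 with all arrays, the lowest being 26 of the 27 members not below background (an alternative chosen after seeing the data), and at 24 to 28 with 1 array left out. No member passed an adjusted p of 0.05 in any fit: the lowest was 0.205, for Trp53inp1 with the replicate number as a block. The count of 10 members with an unadjusted p under 0.05 and a fold of 1.5 was 10 or 11 in the alternatives with all arrays and 3 to 10 with 1 array left out. Over all features, 1 passed in place of 0, Hmox1, with an intensity trend in the prior, median centring, cyclic loess, features above the median level, or the replicate block. The same-numbered arrays deviated together with a correlation of 0.21 over features, which with 2 numbers does not show pairing, and the block changed no member's call. Rrm2b turned to -0.0054 after median centring. With 1 array left out the sign turned in 7 members, whose values ran from -0.065 to 0.36 for Gtse1, -0.072 to 0.28 for Bbc3, -0.0362 to 0.45 for Pmaip1, -0.16 to 0.18 for Rrm2b, -0.57 to 0.0289 for Ddb2, -0.0118 to 0.15 for Xpc and -0.19 to 0.43 for Ddit4l. The cause was not tested. The other 23 members were above 0 in each of these 4 fits. The mean of several features was not run, since each member had 1.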

Other observations

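The subunits of DREAM and of its core MuvB were mostly a little lower with spermidine. Of 13 listed, 12 were measured, 10 lower and 2 higher, with a median difference of -0.28 and 0 passing the adjusted limma test. An unadjusted limma p under 0.05 was found in 1, near the share of 7.02% of all features and 8.57% of the brighter ones. Lin52 was higher by 0.11 and Lin9 differed by -0.41, both parts of MuvB. Rbl2, the pocket protein p130 that prevails in resting cells, was higher by 0.39, with 12.29 and 12.25 in the spermidine arrays against 11.71 and 12.05 in the control arrays. Rbl1, the pocket protein p107 of cycling cells, had 11.80 and 10.99 with spermidine and 12.19 and 12.03 in control cultures, a difference of -0.71. The groups did not overlap in either gene. Over the 12, each spermidine array exceeded each control array in 1 and lay below in 7. The groups overlapped in 4, and the shares of all features were 18.3%, 18.4% and 63.3%.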
